A study of Rattus norvegicus with 25 samples.

Results

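Intestinal sections labelled non-glucotonic, taken from rats after Roux-en-Y gastric bypass (RYGB), were set against distal intestine of sham-operated rats. All libraries whose titles begin Nonglucotonic_OLE (5) or Sham_OLE (3) were used, 8 of the 25 libraries of the series. Titles carry a number behind OLE, which was taken to identify the rat. Both libraries of number 13 (13-33 and 13-34) were summed, which left 4 non-glucotonic samples (numbers 13, 16, 18 and 19) and 3 sham samples (numbers 4, 22 and 23). The design text gives OLETF (Otsuka Long-Evans Tokushima Fatty) rats for the operated and the sham group of its distal-intestine pair, and the OLE in these titles was taken to mean that strain. Glucotonic and non-glucotonic are the submitters' own terms. The comparison is not one of the 5 pairs listed in the design text; it follows from the groups. How a section was assigned to either class is not given in the sources used here, nor is the age or sex of the rats, the time since surgery or the strain of the first cohort described below. RNA-seq measured whole tissue, so fewer cells of a type and less RNA per cell cannot be told apart.

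RYGB joins a small stomach pouch to the jejunum. Food then runs through an alimentary limb and meets bile and pancreatic juice only in the common limb below the junction. Along the normal small intestine, the jejunum carries most sugar, peptide and fat uptake, and the ileum takes up bile acids and vitamin B12, so the level of many genes depends on where a section was cut. OLETF rats lack a working cholecystokinin receptor of the A type, overeat and become obese and diabetic.

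The count table gives Ensembl gene IDs, and no table at hand pairs them with gene symbols: 0 of 32883 IDs could be named. Genes are therefore described by ID, and at most 2 IDs in each direction are printed per comparison. The lists of pathway genes and cell type markers could not be applied, so the labelled tissue was not checked against defining markers. It was checked against the sham jejunum (Sham_JEJU) and sham ileum (Sham_IL) of a first cohort of the same series, which shares no library with the OLE samples.

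The non-glucotonic libraries held 18095668 to 23524322 counts and the sham libraries 18822931 to 24617911. ENSRNOG00000043866 and ENSRNOG00000030478 were left out of all library totals because they took a large part of them. ENSRNOG00000043866 held 36.6%, 45.0%, 40.04% and 40.3% of the counts in non-glucotonic samples 13, 16, 18 and 19, against 42.7%, 47.8% and 50.1% in sham samples 4, 22 and 23. Its mean share was 40.5% ± 3.45 (SD, n = 4) against 46.9% ± 3.78 (SD, n = 3), and the ranges overlapped (exact permutation test, two-sided, p = 0.0857, adjusted p = 0.129 over 3 sample-level values). ENSRNOG00000030478 held 9.07%, 9.03%, 7.10% and 15.7% of the non-glucotonic counts in the same order, against 6.28%, 7.20% and 6.55% in sham. Non-glucotonic sample 19 was the highest of these, and sample 18 lay inside the sham range (exact permutation test, two-sided, p = 0.0857, adjusted p = 0.129). With 35 arrangements of 7 samples the smallest p this test can give is 0.0286. After removal, 10.02 M to 11.5 M counts per library were left in the non-glucotonic group and 8.48 M to 12.6 M in sham.

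A single sample of each group stood apart from the rest. Distances between samples were taken as the root mean square of the log2 difference over 14444 IDs. Non-glucotonic samples 13, 16 and 18 lay 0.441 to 0.499 from each other, and sample 19 lay 0.741 to 0.889 from them. Sham samples 22 and 23 lay 0.503 apart, and sham sample 4 lay 0.773 and 0.823 from them. The 12 distances between a non-glucotonic and a sham sample ran from 0.581 to 0.778, with a median of 0.678. Sham sample 4, although labelled distal intestine, also had jejunal levels of the segment IDs described further on. With these samples, distances inside the groups (medians of 0.62 in non-glucotonic and 0.773 in sham) spanned those between the groups. Without samples 19 and 4, distances inside the groups were 0.441 to 0.503, all below the 0.581 to 0.778 between the groups. The samples were left out for their distance, so the smaller distances inside the groups follow in part from that choice. Sham then holds a single pair.

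**Figure D1:**
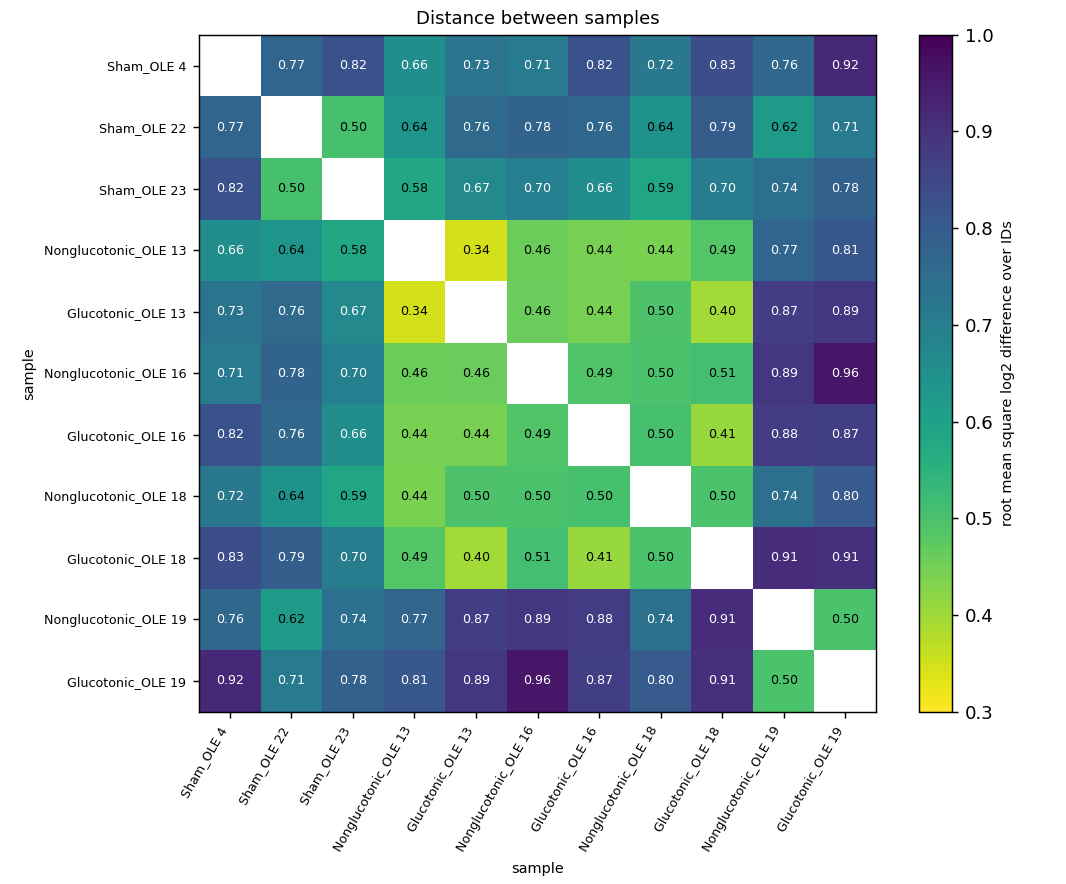
Root mean square log2 difference between every pair of the 11 OLE samples over 14444 IDs, with dark cells for distant pairs. Both sections of number 19 lie 0.50 from each other and at least 0.74 from every section of numbers 13, 16 and 18, and Sham_OLE 4 lies 0.77 and 0.82 from the other sham samples.

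In sample 19, 1856 IDs (12.8%) differed by over 2-fold from the average of the remaining non-glucotonic samples, 1258 of them lower and 598 higher. The same count was 359 in sample 13, 377 in sample 18 and 771 in sample 16. In sham sample 4, 1670 IDs (11.6%) differed by over 2-fold from the average of sham samples 22 and 23, against 838 in sample 22 and 852 in sample 23. These counts describe the samples and were not tested.

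No ID differed between non-glucotonic and sham samples past the threshold. Of 14444 IDs tested, 0 had an adjusted p under 0.05 (0% called; edgeR quasi-likelihood test with Benjamini-Hochberg adjustment), and the lowest adjusted p was 0.833. DESeq2 called 17 in the same samples, 11 higher and 6 lower. At an unadjusted p under 0.05, edgeR gave 820 IDs (5.68%), of which 375 were higher (2.6%) and 445 lower (3.08%) in non-glucotonic samples. This count moved with the samples: it was 2325 without non-glucotonic 19, 1997 without sham 4 and 4360 without both, and 422 to 586 without any other single sample. With all 7 samples weighted by their quality, limma's voom gave 3934 such IDs and 0 past the adjusted threshold. Groups that did not overlap, with all 4 non-glucotonic samples above all 3 sham samples, were found for 450 IDs (3.12%), and the opposite order for 454 (3.14%). No ID had at least 3 counts in every non-glucotonic sample and 0 in every sham sample, and 1 ID showed the reverse pattern.

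The IDs named here have the lowest p in each direction among those with a mean of at least 5 CPM, the count scaled to the library total, and groups that did not overlap. Neither the risen nor the fallen ones passed the threshold, and none was independently selected, since the rule ranks the same test.

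ENSRNOG00000060184 stood at 16.4, 14.4, 9.68 and 1.91 CPM in non-glucotonic samples 13, 16, 18 and 19. Sham samples 4, 22 and 23 held 0.0866, 0.205 and 0.405 CPM, which are 1, 2 and 4 counts. Every non-glucotonic sample was above every sham sample, although sample 19 was far below the other 3. The log2 change was 5.49 (SE 0.90, 95% interval 3.43 to 7.55, adjusted p = 0.833, edgeR). Without sample 19 the change was 5.84 and it was the only ID that passed (adjusted p = 0.0194, edgeR). Over 25 alternatives its log2 change ran from 5.08 to 6.45, with adjusted p from 1.73e-07 (DESeq2) to 1. The glucotonic sections of the same numbers held 17.6, 7.88, 13.4 and 1.65 CPM, so that number 19 was lowest in both kinds of section. Within each first-cohort group, this ID also differed widely between libraries of one treatment: it ran from 0 to 12.9 CPM in Sham_JEJU and from 0 to 8.99 CPM in Sham_IL. Its log2 change was -0.10 in the common limb (RYGB_CL) against Sham_IL (adjusted p = 0.992, edgeR) and 0.04 in the alimentary limb (RYGB_AL) against Sham_JEJU (adjusted p = 0.993, edgeR), and it differed by -0.51 between Sham_IL and Sham_JEJU (adjusted p = 0.892, edgeR).

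ENSRNOG00000019982 stood at 63.9, 64.9, 76.97 and 56.1 CPM in non-glucotonic samples 13, 16, 18 and 19, against 32.5, 34.9 and 39.0 CPM in sham samples 4, 22 and 23. The lowest non-glucotonic value lay well above the highest sham value, and samples 19 and 4 did not stand out. The log2 change was 0.89 (SE 0.15, 95% interval 0.54 to 1.23, adjusted p = 0.833, edgeR; 0.00234 to 1 over 25 alternatives). The glucotonic sections held 77.01, 78.6, 90.6 and 88.4 CPM, above the non-glucotonic section of the same number in all 4 pairs. That difference between the sections was -0.36 on the log2 scale with the number as a block (SE 0.09, adjusted p = 0.186, edgeR). In the first cohort this ID averaged 69.0 ± 15.2 CPM in Sham_IL and 34.1 ± 8.53 CPM in Sham_JEJU (SD, n = 3 each; log2 difference 1.02, adjusted p = 0.0935, edgeR). Its log2 change there was 0.26 in RYGB_CL against Sham_IL (adjusted p = 0.853, edgeR) and 0.34 in RYGB_AL against Sham_JEJU (adjusted p = 0.641, edgeR).

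ENSRNOG00000009448 had 8.54, 7.44, 11.3 and 6.64 CPM in non-glucotonic samples 13, 16, 18 and 19. Sham samples 4, 22 and 23 held 17.6, 18.3 and 17.5 CPM, all above the non-glucotonic values. The sham samples spanned less than 1 CPM. The log2 change was -1.07 (SE 0.20, 95% interval -1.53 to -0.60, adjusted p = 0.833, edgeR; 0.0129 to 1 over 25 alternatives). Glucotonic sections held 5.29, 5.61, 8.27 and 6.84 CPM. In the first cohort its log2 change was 0.09 in RYGB_CL against Sham_IL (adjusted p = 0.96, edgeR) and -0.34 in RYGB_AL against Sham_JEJU (adjusted p = 0.65, edgeR), and it differed by -0.64 between Sham_IL and Sham_JEJU (adjusted p = 0.275, edgeR).

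ENSRNOG00000007387 had 50.9, 46.8, 39.4 and 38.0 CPM in the non-glucotonic samples in the same order, against 82.5, 118 and 70.5 CPM in sham samples 4, 22 and 23. The groups did not overlap, but the sham values were spread (90.5 ± 24.9 CPM, SD, n = 3, against 43.8 ± 6.12 CPM, SD, n = 4). The log2 change was -1.05 (SE 0.20, 95% interval -1.51 to -0.59, adjusted p = 0.833, edgeR; 0.0129 to 1 over 25 alternatives). The glucotonic sections overlapped the sham range, with 44.6, 79.3, 62.7 and 32.3 CPM. In the first cohort its log2 change was -0.56 in RYGB_CL against Sham_IL (adjusted p = 0.703, edgeR) and -1.20 in RYGB_AL against Sham_JEJU (adjusted p = 0.0786, edgeR), and it differed by 0.02 between Sham_IL and Sham_JEJU (adjusted p = 0.972, edgeR). None of these passed.

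**Figure D2:**
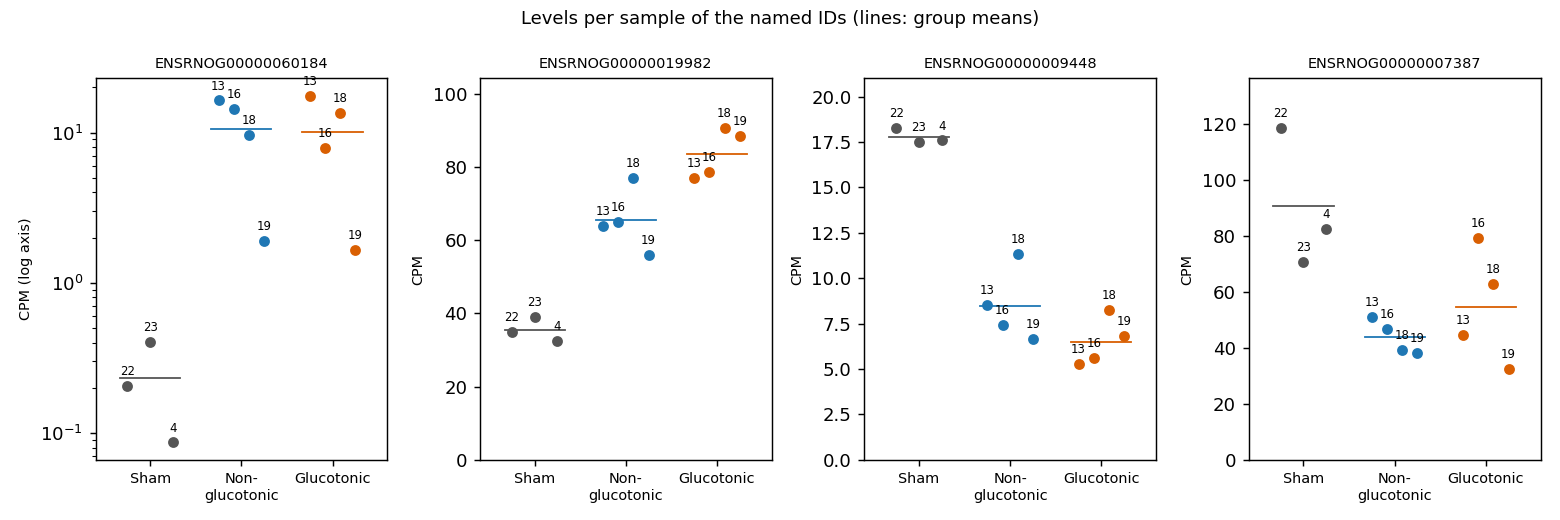
CPM of each named ID in every OLE sample, with sample numbers beside the points and a line at each group mean; the panel of ENSRNOG00000060184 has a log axis. Non-glucotonic and sham samples do not overlap in any of the 4 panels, and glucotonic sections overlap sham only for ENSRNOG00000007387.

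For most IDs the data bounded the change, and for low IDs they did not. The median standard error of a log2 change was 0.228, and the median absolute log2 change was 0.187. For 10151 IDs (70.3%) the 95% interval lay inside a 2-fold change in both directions. That share was 85.6% among IDs averaging 10 to 100 CPM, 45.2% at 1 to 10 CPM and 4.03% under 1 CPM. For 3793 IDs (26.3%) the interval held both no change and a 2-fold change, which could not be told apart at this depth and number of samples. Intervals lay entirely beyond 2-fold for 13 IDs. Without non-glucotonic 19 and sham 4, 18.4% of the intervals held both no change and a 2-fold change, and 63 lay entirely beyond 2-fold. Estimated changes over 2-fold were as common upwards (178 IDs) as downwards (176 IDs).

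The IDs with an unadjusted p under 0.05 differed in abundance by direction. At over 100 CPM 68 were higher and 22 lower in non-glucotonic samples (4.29% of 2096 IDs in either direction). At 1 to 10 CPM 69 were higher and 178 lower (5.58% of 4424 IDs). At 10 to 100 CPM the directions were nearly even, with 225 higher and 234 lower (6.18% of 7428 IDs). These shares lie near the 5.68% of all IDs tested. Without non-glucotonic 19 and sham 4 the counts were 763 higher and 147 lower at over 100 CPM, and 238 higher and 704 lower at 1 to 10 CPM. The median log2 change was 0.56 among the higher IDs and -0.65 among the lower ones. These IDs were selected by their p, so their medians are a description.

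Lane, read from the end of each library's description, moved with group. All 3 sham libraries came from lane 7, and of the non-glucotonic libraries only 13-34 did, with 13-33 and 16-54 from lane 4 and 18-39 and 19-38-39 from lane 5. Libraries 13-33 and 13-34 differed by 0.543 (root mean square log2), and 723 IDs (5.01%) lay more than 2-fold apart. This was more than the 0.441 to 0.499 by which samples 13, 16 and 18 differed from each other, where sample 13 is the sum of these libraries. The libraries of 1 number were thus no more alike than samples of different numbers. Over all tested IDs, the lane 7 library was the nearer to the sham mean for 62.7%. With 13-34 alone against the sham libraries in lane 7, the log2 change was 6.45 for ENSRNOG00000060184, 0.65 for ENSRNOG00000019982, -0.80 for ENSRNOG00000009448 and -1.23 for ENSRNOG00000007387. These values set 1 library against 3, and 13-34 was part of the sample by which the IDs were chosen, so their direction is no separate evidence. With lane 7 as a covariate the group difference also rests on 13-34 alone, and the 0 calls of that fit (169 at an unadjusted p under 0.05, edgeR) say little about lane. Lane and group cannot be told apart for the other non-glucotonic samples. Glucotonic libraries came from lanes 4 and 7 in number 13, lane 4 in numbers 16 and 18 and lane 6 in number 19. Sections of one number thus shared their lanes in numbers 13 and 16 only. The fits between the sections, given further on, hold no term for lane.

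Leaving out both distant samples changed the count. Without non-glucotonic 19 and sham 4, edgeR called 1376 of 14444 IDs, 771 higher (5.34%) and 605 lower (4.19%), with a median log2 change of 0.74 among the higher and -0.78 among the lower IDs and 292 past 2-fold. This sets 3 samples against 2, and the samples were left out because they lay far from their groups, so the smaller spread (biological coefficient of variation 0.169 in place of 0.280) follows in part from the choice. In simulated counts for these 5 samples, 16.1% of the calls were false at a threshold meant to hold 5%. Leaving out one of them alone gave 1 call, a higher ID, without sample 19 (0.00692%) and 1 call, a lower ID, without sham sample 4 (0.00692%). Of the 1376 IDs, 1321 had a log2 change of the same sign in the fit of all 7 samples. In that fit 317 had an unadjusted p under 0.05 (edgeR). The fit holds the 5 samples that made the calls, so the shared sign is no separate evidence. All 4 named IDs were among the calls, at adjusted p of 0.00241, 0.0163, 0.0271 and 0.0378 (edgeR) in the order given above.

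The sham samples differed widely in the IDs that separate sham ileum from sham jejunum in the first cohort. An index was built from 244 IDs higher in Sham_IL and 426 IDs higher in Sham_JEJU (over 2-fold, adjusted p under 0.05, edgeR; 9.23% of the IDs tested between these groups had such a p, at any fold), and scaled to 0 at the mean of Sham_JEJU and 1 at the mean of Sham_IL. Non-glucotonic samples 13, 16, 18 and 19 lay at 0.757, 0.728, 0.795 and 0.541, and sham samples 4, 22 and 23 at 0.107, 0.758 and 0.973. Sham sample 4 thus fell among the jejunum libraries, which ran from -0.0772 to 0.124, and sham sample 23 among the ileum libraries, which ran from 0.941 to 1.10. The non-glucotonic samples lay between sham samples 4 and 23. The index is a difference of 2 mean levels, and sham 23 was ileal in only 1 of them. Its jejunum-high IDs averaged 4.617 log2 CPM, inside the Sham_IL range of 4.571 to 5.051. Its ileum-high IDs averaged 3.406, below the Sham_IL range of 3.724 to 3.805. The group means were 0.705 ± 0.113 (SD, n = 4) and 0.613 ± 0.451 (SD, n = 3), not distinguishable (exact permutation test, two-sided, p = 0.8, adjusted p = 0.8). Both cohorts were scaled together, and a difference between them in these IDs would move every OLE value.

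**Figure D3:**
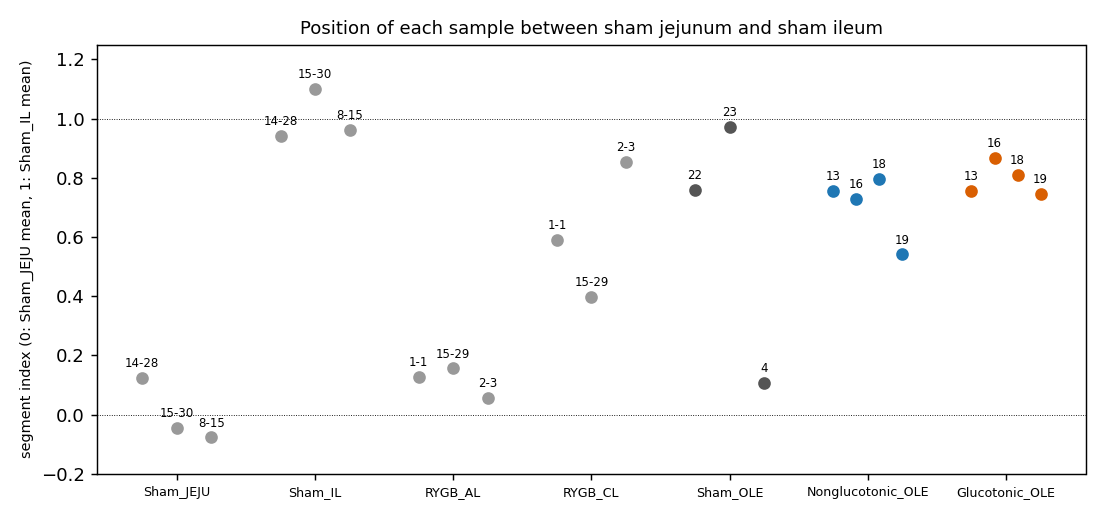
Segment index of every sample of the series (0 at the Sham_JEJU mean and 1 at the Sham_IL mean, dotted lines), with sample numbers beside the points. The Sham_OLE samples span 0.107 to 0.973, and the non-glucotonic samples lie between 0.541 and 0.795.

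The change in jejunum-high IDs turned with sham sample 4. With all 7 samples, 129 of the 426 (30.3%) were higher in non-glucotonic than in sham samples, with a median log2 change of -0.15, against 48.2% and -0.01 over the 14265 IDs tested in both cohorts. Without sham sample 4, 373 of the 426 (87.6%) were higher, with a median of 0.39, against 50.7% and 0.01 over all. Of these 426 IDs, 1 had non-overlapping, higher non-glucotonic values with all samples (0.235%, against 3.08% of all IDs) and 172 without sham 4 (40.4%, against 12.2%). Ileum-high IDs moved the other way, from a median of 0.10 (57.8% higher) to -0.13 (41.0% higher). Without sham 4, 49 of the 244 (20.1%) had non-overlapping, lower non-glucotonic values, against 13.6% of all IDs, and with all samples 0 did, against 3.17%. With both distant samples left out, 203 jejunum-high IDs (47.7%) had non-overlapping, higher values, against 24.4% of all IDs, while 67 ileum-high IDs (27.5%) had non-overlapping, lower values, close to the 26.4% of all IDs.

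**Figure D4:**
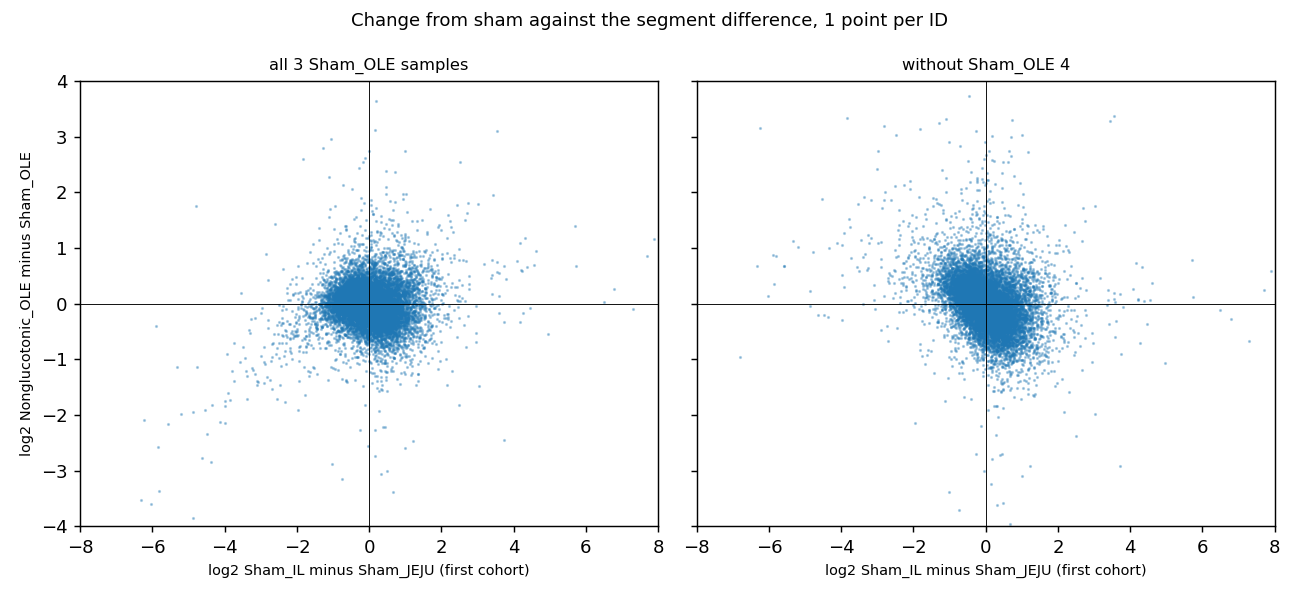
Log2 change of non-glucotonic against sham samples (vertical) over the log2 difference of Sham_IL and Sham_JEJU in the first cohort (horizontal), 1 point per ID for 14265 IDs, of which 23 fall outside the axes. Without Sham_OLE 4 the cloud tilts downwards to the right (Spearman's rho -0.401, against -0.0712 with all samples).

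The calls made without both distant samples were split by segment. IDs without an adjusted p under 0.05 between sham ileum and sham jejunum (edgeR) made up 87.1% of these calls. Their share of all 14265 IDs was near that, at 90.2%. The first cohort has 3 libraries per group, and this class also holds IDs with a large segment difference that missed the threshold. ENSRNOG00000047026 is one, at a log2 difference of -4.12 (adjusted p = 0.215, edgeR). Of the 12866 IDs of this class, 618 (4.80%) were called higher and 579 (4.50%) lower. Of the 1014 IDs that were higher in sham jejunum at an adjusted p under 0.05, 147 (14.5%) were called higher and 5 (0.493%) lower. Of the 385 IDs higher in sham ileum, 4 (1.04%) were called higher and 21 (5.45%) lower. With the segment index as a covariate in place of leaving out sham 4, and sample 19 left out, edgeR called 994 IDs (581 higher and 413 lower); with the index and all 7 samples it called 0 (1319 at an unadjusted p under 0.05).

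The common limb of the first cohort (RYGB_CL) against Sham_IL is the nearest comparison with other rats. Of the 366 IDs higher in non-glucotonic samples at an unadjusted p under 0.05 and tested in both cohorts, 222 (60.7%) were higher in RYGB_CL, against 56.6% of all 14265 IDs. Of the 444 lower IDs, 245 (55.2%) were higher in RYGB_CL. Across all IDs the 2 changes were nearly unrelated (Spearman's rho 0.0129 over 14265 IDs, which are not independent replicates). Without sham 4, 814 of 1026 higher IDs (79.3%) were higher in RYGB_CL and rho was 0.20. Only 104 of those 1026 (10.1%) were higher in Sham_IL than in Sham_JEJU, against 49.2% of all IDs, and the RYGB_CL libraries had an index of 0.398 to 0.853, all below the Sham_IL libraries. Both of these first-cohort differences use the Sham_IL libraries, with opposite sign, so the shares of 79.3% and 10.1% are tied to each other and are given side by side only.

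Whether non-glucotonic sections differ from glucotonic ones was tested directly, since their changes from sham share the sham samples. A non-glucotonic and a glucotonic section of one number lay 0.344 to 0.498 apart (root mean square log2, median 0.493), and those of different numbers 0.444 to 0.958. Without number 19, sections of different numbers lay 0.444 to 0.509 apart, with a median of 0.491. Number 13 had the closest pair (0.344). Both of its sections are sums of 2 libraries, while every other section is a single library, so this distance is not on an equal footing. Non-glucotonic 16 and 18 lay 0.459 and 0.496 from glucotonic 13, and 0.489 and 0.498 from the glucotonic section of their own number. Without the number as a term, 0 of 14444 IDs passed (0%; 528, or 3.66%, at an unadjusted p under 0.05, edgeR; 19 by DESeq2). With the number as a block, 27 passed (0.187%), 18 higher (0.125%) and 9 lower (0.0623%) in non-glucotonic sections. Their medians were 1.34 and -0.82 on the log2 scale. Of the 27, 26 had one direction in all 4 numbers. They were called from these same 4 pairs, so that agreement is no separate evidence. The count of 27 became 7 without number 19, 10 without number 16, 17 without number 18 and 222 without number 13.

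ENSRNOG00000047026 stood at 35.4, 59.7, 7.19 and 21.3 CPM in non-glucotonic sections 13, 16, 18 and 19, against 0.903, 0.755, 0.517 and 1.43 CPM in the glucotonic sections. Every non-glucotonic section was above every glucotonic one (log2 difference 5.03, SE 0.33, adjusted p = 0.00284 with the block, 0.461 without it, edgeR). Sham samples 4, 22 and 23 held 377, 28.1 and 0.809 CPM, in the order of their segment index from jejunum to ileum. The sections did not keep that order. Non-glucotonic 19, at an index of 0.541, held less than non-glucotonic 16, at 0.728. Glucotonic 19 (index 0.746) held 1.43 CPM, against 28.1 CPM in sham 22 (index 0.758). In the first cohort it averaged 543 ± 390 CPM in Sham_JEJU and 31.3 ± 51.3 CPM in Sham_IL (SD, n = 3 each; adjusted p = 0.215, edgeR).

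ENSRNOG00000058388 was lower in each non-glucotonic section than in the glucotonic section of its number: 184 against 281 CPM in number 13, 146 against 285 in number 16, 78.3 against 149 in number 18 and 67.1 against 162 in number 19. The values of the groups overlapped, and the difference shows within numbers (log2 difference -0.94, SE 0.11, adjusted p = 0.0125 with the block, 1 without it, edgeR). Sham samples 4, 22 and 23 held 137, 83.8 and 83.6 CPM, inside the non-glucotonic range.

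IDs that had risen in the alimentary limb of the first cohort leaned lower in non-glucotonic than in glucotonic sections, and IDs that had fallen there leaned higher. Of 650 IDs risen in RYGB_AL against Sham_JEJU (adjusted p under 0.05, edgeR), 506 (77.8%) were lower in non-glucotonic than in glucotonic sections, with a median of -0.15 on the log2 scale in the blocked fit, against 48.3% and 0.01 over all 14265 IDs. Of 500 IDs fallen in RYGB_AL, 398 (79.6%) were higher, with a median of 0.14. The medians had these signs in each of the 4 numbers. For the risen IDs they were -0.0341, -0.168, -0.272 and -0.18 in numbers 13, 16, 18 and 19. For the fallen IDs they were 0.0342, 0.0914, 0.216 and 0.183 in the same order. In numbers 18 and 19 the sections came from different lanes, and the part of lane in these medians was not tested. Leaving out 1 number at a time gave 20.5% to 27.5% of the risen and 73.0% to 79.4% of the fallen IDs higher in non-glucotonic sections. Among IDs not called as separating sham ileum from sham jejunum, 463 of 599 risen IDs (77.3%) were lower and 347 of 435 fallen IDs (79.8%) were higher. These can still hold segment differences that missed the threshold. With the block, 3 of the 650 risen IDs passed as lower (0.462%, against 0.0631% of all 14265 IDs) and 1 of the 500 fallen IDs passed as higher (0.2%, against 0.119%), so few single IDs of either class were called.

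Against sham, the same classes showed no such lean. Of the risen IDs 347 of 650 (53.4%) were higher in non-glucotonic than in sham samples, and of the fallen IDs 262 of 500 (52.4%), against 48.2% over all IDs. Without sham 4 the fallen IDs were higher for 318 of 500 (63.6%), and without both distant samples for 325 of 500, against 50.7% and 49.0% of all IDs. The risen IDs stayed between 49.1% and 53.4% in these 4 sets of samples.

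The segment index of the sections was compared within numbers. The index of the non-glucotonic section was lower by 0.14 in number 16 and by 0.204 in number 19, and differed by 0.00212 and -0.0153 in numbers 13 and 18 (mean difference -0.0895, not distinguishable from 0; exact sign-flip permutation test, two-sided, p = 0.25, where 4 pairs allow no less than 0.125). Jejunum-high IDs were higher in non-glucotonic sections for 310 of 426 (72.8%, against 51.7% of all 14265 IDs), with a median of 0.12 on the log2 scale. The blocked fit called 8 of the 426 higher (1.88%), against 17 of all 14265 (0.119%). In numbers 13 and 18 the jejunum-high median was 0.0316 each, while in numbers 16 and 19 it was 0.183 and 0.247. The part of segment in the lean of the alimentary IDs was not tested beyond the subset of IDs above.

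**Figure D5:**
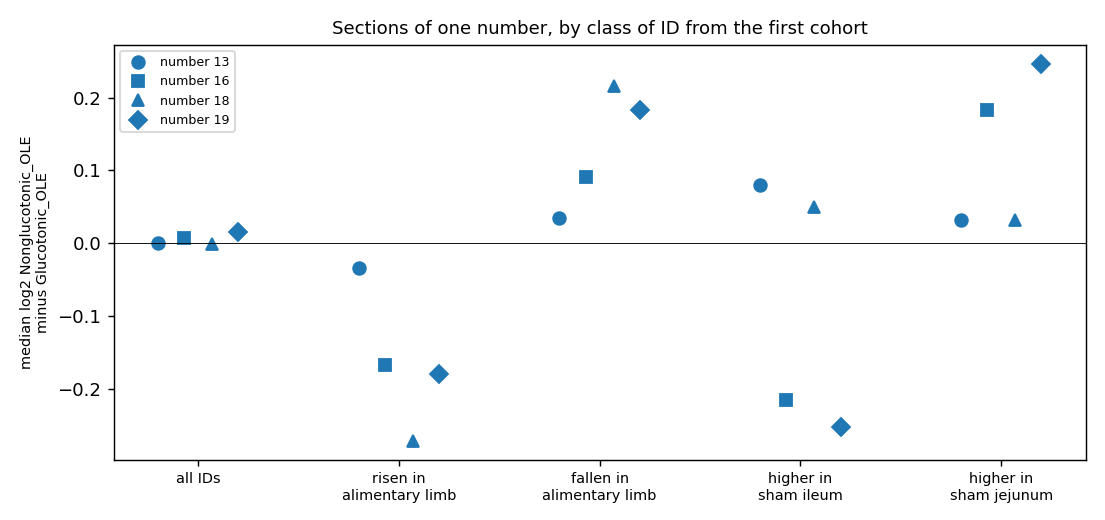
Median log2 difference of the non-glucotonic from the glucotonic section of each number (1 symbol per number) over classes of IDs taken from the first cohort. IDs risen in the alimentary limb lie below 0 in all 4 numbers. IDs fallen there and jejunum-high IDs both lie above 0 in all 4 numbers, while ileum-high IDs lie on both sides of 0.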

How the data were processed

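Stranded, rRNA-depleted total RNA libraries were sequenced, per the labels' protocols. The submitters' processing notes name FastQC, STAR and the rat build rn6. How reads were assigned to IDs, and with which annotation and strand setting, is not given in the sources used here, so values of IDs with near-identical copies or antisense partners are uncertain. The authors deposited whole-number counts for 32883 IDs in 25 libraries.

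The 2 abundant IDs were removed, libraries of number 13 were summed, and IDs were filtered by group with filterByExpr (10 counts, 15 in total). TMM factors came from the 11 OLE samples. The main fit (edgeR 4.0.16, R 4.3.3, robust quasi-likelihood) held only the 4 and 3 samples compared, because glucotonic sections carry the same numbers. CPM are TMM-scaled. SEs are the log2 change over the root of F, and intervals use its t quantile. Log2 CPM for distances and indices had a prior count of 2. Alternatives used DESeq2 1.42.0 and limma 3.58.1. The named-ID rule was: adjusted p under 0.05, else the lowest unadjusted p, at least 5 CPM, no overlap, 2 IDs per direction because no symbols were available. For the blocked comparison the 2 largest log2 changes each way at 5 CPM were taken after the values were seen, of which the text describes 1 each way and the closing section all 4.

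Members, lists, segment and alimentary classes were chosen with earlier results of these data known. Alimentary and segment classes share the Sham_JEJU libraries. Sections of one number correlated in their deviations from the group mean at r = 0.468, 0.433, 0.342 and 0.813 (13, 16, 18, 19), and were treated as paired. Sections of different numbers reached r = 0.45. No libraries within a group agreed within sampling noise (lowest chi-square per degree of freedom 18.3). No label says that numbers are separate animals, and p-values then reflect only how far these samples differ, which may be technical. In simulated counts over 14444 IDs, the test of non-glucotonic against sham samples recovered 28% of 2-fold and 84% of 4-fold changes. The blocked test of the sections recovered 81% and 97%, with 12.7% of its calls false. For non-glucotonic against sham, the counts were drawn independently for each ID and sample. No simulated sample therefore stood apart as non-glucotonic 19 and sham 4 do, and the 28% and 84% may not hold for the measured samples.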

Additional observations from a re-analysis of the deposited data

Results flagged for a closer look

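A test of the difference between the 2 kinds of section, whose changes are measured from the same sham samples, passed for 27 IDs with the rat number as a replicate block (edgeR, adjusted p under 0.05). The largest log2 differences of non-glucotonic from glucotonic sections at a mean of at least 5 CPM were 5.23 for ENSRNOG00000010708, 5.03 for ENSRNOG00000047026, -1.41 for ENSRNOG00000003977 and -0.94 for ENSRNOG00000058388. ENSRNOG00000010708 held 16.8, 15.7, 2.86 and 86.0 CPM in non-glucotonic sections 13, 16, 18 and 19 and 0.645, 0, 0.103 and 2.21 CPM in the glucotonic ones. Like ENSRNOG00000047026 it was high in sham sample 4 (168 CPM) and low in sham sample 23 (0.202 CPM), with 31.7 CPM in sample 22. ENSRNOG00000003977 held 153, 59.4, 38.7 and 18.8 CPM against 307, 238, 106 and 42.2 CPM in the glucotonic sections, with sham samples 4, 22 and 23 at 32.4, 67.2 and 57.3 CPM. Dixon's test was run on 12 sets of 4 values: the CPM of the 4 named IDs in each kind of section, and the 2 abundant IDs' shares, the segment index and the number of IDs over 2-fold from the group in the non-glucotonic samples. It passed its critical value in none of them. The 3 sham samples are too few for it, and non-glucotonic 19 and sham 4 stand apart by distance all the same.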

How the results depend on the processing

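For non-glucotonic against sham samples, the count of 0 was 17 with DESeq2 and 1376 without non-glucotonic 19 and sham 4. Leaving out 1 sample at a time gave 0 to 1. Alternatives added after the data were seen gave 150 (all 3 OLE groups, both sections of number 19 left out), 994 (segment index as a covariate, without sample 19), 6 (libraries of number 13 apart, without sample 19) and 1 (the same with lane 7 as a covariate). The other alternatives gave 0. The 4 named IDs kept their direction in all 25, which was largely fixed by their selection for non-overlapping groups in these same samples. No paired analysis of non-glucotonic against sham samples was possible within pairs because the groups share no number; limma over 3 groups with the number as a random replicate block called 0. Between the sections, the count of 0 was 27 with the replicate block and 19 with DESeq2, and leaving out 1 number gave 0 to 222 over the fits with and without the block. Leaving out samples shows only that the counts depend on them, and the cause of the changed counts was not tested. Gene lists were not run for lack of symbols. Depth limits IDs under 10 CPM most.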
